A study of Mus musculus with 6 samples.

Results

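The genes described here are 50 protein-coding genes of the G2 and M phases of the cell cycle: kinases and cyclins, the spindle checkpoint, the partners of the anaphase-promoting complex, centromere and kinetochore proteins, kinesins, condensin and the proteins that build the spindle and divide the cell. They were taken from the table by gene symbol, from a list drawn up with earlier results of these data known. All 50 were found among the 17313 genes of the deposited table, and all 50 reached 10 scaled counts in 3 or more libraries, the filter that left 13260 genes to test. Their mean levels ranged from 13.9 scaled counts per kilobase of exon for Kif18a to 273 for Ccnb2.

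Entry into mitosis is driven by the kinase CDK1 bound to cyclin A or B, which the CDC25 phosphatases switch on and the Polo and Aurora kinases reinforce. Kinetochores, built on the centromere, then capture spindle microtubules, and the spindle checkpoint holds the anaphase-promoting complex back until all chromosomes are attached. The complex then destroys securin and cyclin B, separase cuts cohesin, and kinesins, the chromosomal passenger complex and RhoA regulators complete cytokinesis. Most of these genes are transcribed only in cells that are about to divide, under the MuvB complex with B-MYB and FOXM1, through promoter elements that include CHR (the cell cycle genes homology region) and the CCAAT box. Macrophages grown from marrow divide in culture in response to macrophage colony-stimulating factor, so such a culture holds dividing and resting cells.

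The RNA came from macrophages that were differentiated in culture from marrow of C57BL/6 mice. Every mouse carried Hdac2 alleles flanked by loxP sites (Hdac2fl/fl) and had been given the Lewis lung carcinoma line LLC1 intravenously, and marrow was collected at day 20. The KO group (3 libraries) additionally carried LysMCre, a Cre recombinase expressed from the lysozyme gene in the myeloid lineage, and the WT group (3 libraries) was Hdac2fl/fl without Cre. The comparison asks what inactivating Hdac2, which encodes a histone deacetylase, does in macrophages of tumour-bearing mice. The age of the mice and the number behind each library do not appear in the labels, so a p-value here reflects only how far these libraries spread, part of which may be technical. In bulk RNA, fewer dividing cells and less RNA per dividing cell cannot be told apart.

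Values are scaled counts: reads per gene multiplied by a factor per library and rounded, with library totals of 5704313 to 5837994. Hdac2 stood at 392, 387 and 375 scaled counts in KO libraries, against 534, 482 and 518 in WT libraries, a log2 difference of -0.41 ± 0.057 (SE, limma adjusted p = 0.158, exact permutation p = 0.1, the smallest that 3 against 3 allows). Lyz2, which encodes lysozyme M and drives the Cre, was at 930, 942 and 953 in KO and 1068, 1144 and 1055 in WT. Over all tested genes WT 2 and WT 3 stood apart from the other libraries. Principal component 1 (78.6% of the variance over tested genes) put KO 1 to KO 3 at -51.5, -42.5 and -19.9, and WT 1 to WT 3 at -12.7, 72 and 54.6. Xist was at 4726, 4997 and 3298 in the KO libraries and at 5243, 0 and 74 in the WT libraries, and WT 2 and WT 3 had high levels of Y-linked genes, so the genotype overlaps with this split, and in WT 2 and WT 3 they cannot be told apart. All 16 macrophage markers were tested, with a summed level of 16885 to 17297 in KO and 17700 to 18813 in WT and none at 0. The KO mean was lower in 12 of these 16, with a median log2 difference of -0.15, 9 at an unadjusted p under 0.05 (limma, 9.68% of all tested genes) and 10 with every KO value below every WT value (13.4%). Of 14 fibroblast and marrow stroma markers 12 were tested and all 12 had the higher KO mean, at a summed level of 14689 to 18811 in KO and 5871 to 14213 in WT, and Lepr and Lum did not exceed 9 and 11 scaled counts. The part of these stroma cells in the results below was not tested.

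Across the 50 mitotic genes the KO mean was above the WT mean in 48, with a median log2 difference of 0.25, against 49.1% of all tested genes and a median of -0.0046. Bub3 and Pttg1 were the other two, at -0.086 and -0.095. With limma and Benjamini-Hochberg adjustment over all tested genes, 0 of the 50 passed an adjusted p of 0.05, as did 0 of all 13260 genes (0.0%). At an unadjusted p under 0.05, 4 of the 50 were higher in KO (Aurkb, Espl1, Cenpa and Cenpn) and 0 lower, against 14.7% of all tested genes higher and 9.68% lower, so the share of the 50 genes was not above the background. In 16 of the 50 genes the lowest KO library exceeded the highest WT library (32.0%), against 16.1% of all tested genes, and in 0 the highest KO library was below the lowest WT library, against 13.4%.

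**Figure D1:**
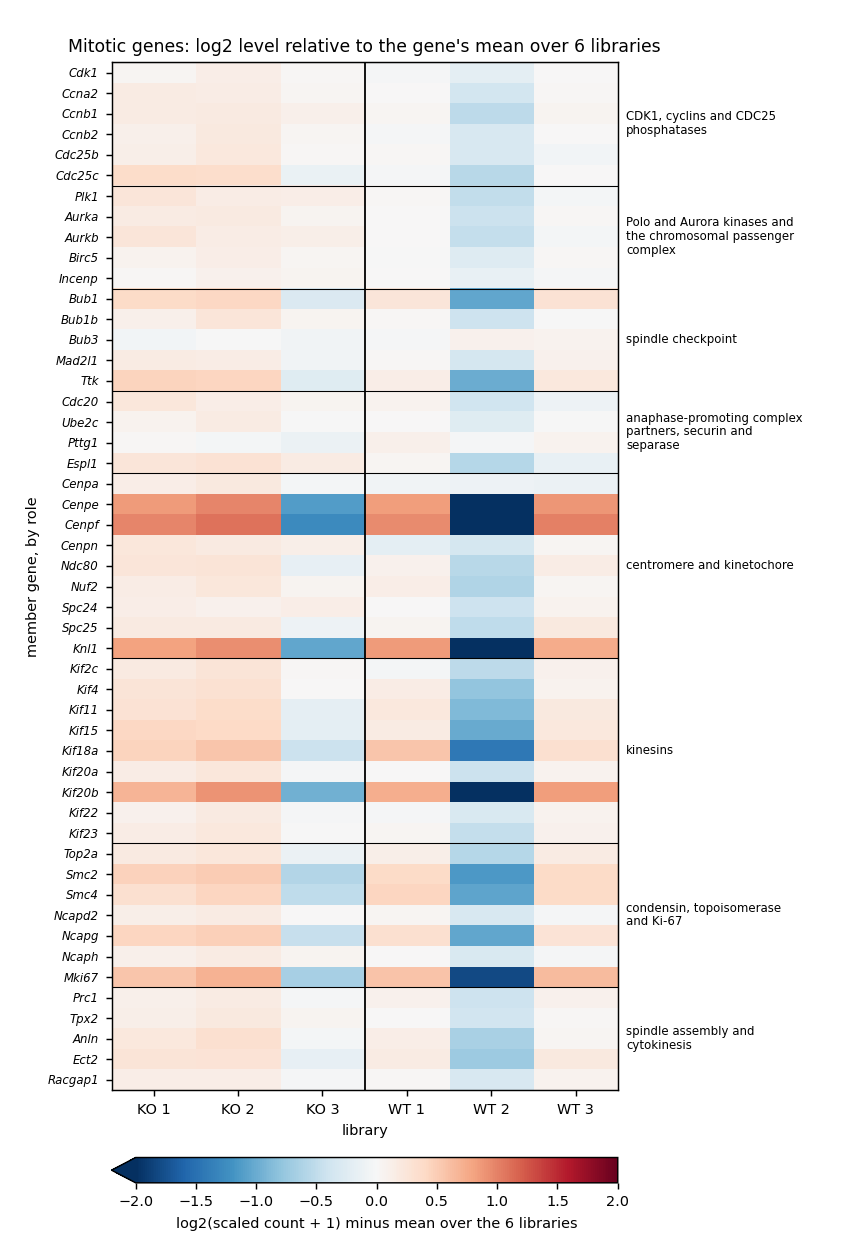
Each row is a mitotic gene, ordered by role, and each column a library, with KO on the left and WT on the right. The colour gives log2(scaled count + 1) minus the gene's mean over the 6 libraries, and values below -2 share the darkest blue. WT 2 is the lowest library in 47 of the 50 genes, and the rows of Cenpe, Cenpf, Knl1, Kif20b and Mki67 are also blue in KO 3, less deeply than in WT 2.

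The WT libraries also differed among themselves. The median log2 difference between the KO mean and a WT library was 0.06 for WT 1, 0.62 for WT 2 and 0.049 for WT 3. WT 2 was the lowest of the 6 libraries in 47 of the 50 genes, against 3543 of the 13260 tested genes. Against WT 1 alone, whose spread was taken to equal that of KO, the KO mean was higher in 34 of the 50 genes (49.6% of all genes) and 1 gene had an unadjusted p under 0.05 (limma, 5.19% of all genes). KO 3 was the lowest KO library in 48 of the 50 genes, against 5131 of all 13260, and KO 2 the highest of all 6 in 37, against 1777. Summed over the 50 genes, the level was 34480, 36031 and 25859 scaled counts in the KO libraries, against 32587, 18542 and 32796 in the WT libraries. In this sum WT 1 and WT 3 lay close together and within the KO range, and WT 2 lay below all others. The picture depended on the adenine share of the transcript, at a split chosen after the values were seen. For the 31 genes with under 30% adenine the sums were 17629, 18187 and 16356 in KO and 16315, 12719 and 16272 in WT. There KO 3 was just above WT 1 and WT 3. For the other 19 genes they were 16851, 17844 and 9503 in KO and 16272, 5823 and 16524 in WT. There KO 3 was far below WT 1 and WT 3. The summed stroma markers were 18811, 17308 and 14689 in KO and 14213, 5871 and 6377 in WT. They were thus lowest in WT 2 and, among KO libraries, in KO 3, as the mitotic genes were, and also low in WT 3, where the mitotic genes were not. The SD of the log2 values was larger in WT than in KO in 48 of the 50 genes, and also in 9758 of all 13260 tested genes. Its median was 0.11 in KO and 0.30 in WT, against 0.096 and 0.14 over all tested genes.

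Among the genes of mitotic entry, all 6 had the higher KO mean and their log2 differences had a median of 0.23. Cdk1, the kinase that drives mitosis, stood at 521, 553 and 512 scaled counts in KO and 498, 441 and 509 in WT. Ccnb1, which encodes cyclin B1, the main partner of CDK1, was at 291, 293 and 278 in KO and 267, 180 and 269 in WT. Both genes were without overlap between the groups, but KO 3 lay only just above WT 3 for Cdk1 and only WT 2 lay far below for Ccnb1. Cyclin B2 (Ccnb2), the gene with the highest level per kilobase of the 50, was at 446, 476 and 424 in KO against 408, 333 and 417 in WT. Cyclin A2 (Ccna2), which acts in S phase and early mitosis, was at 839, 829 and 766 in KO against 752, 578 and 764 in WT. These cyclins also did not overlap, by 7 scaled counts for Ccnb2 and 2 for Ccna2. The CDC25 phosphatases remove the inhibitory phosphates from CDK1. Cdc25b was at 595, 632 and 554 in KO and 554, 439 and 527 in WT, with KO 3 equal to WT 1, and Cdc25c at 179, 177 and 127 in KO and 137, 94 and 140 in WT, with KO 3 inside the WT range. The log2 differences ran from 0.13 (Cdk1) to 0.38 (Cdc25c), with limma adjusted p-values of 0.223 to 0.323.

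The Polo and Aurora kinases and the chromosomal passenger complex had every KO library above every WT library in 5 of 5 genes, against 16.1% of all tested genes, with a median log2 difference of 0.26. The gap between the groups was only 5 scaled counts for Birc5 and 7 for Incenp, and under TMM rescaling the count over all 50 genes was 10 in place of 16. Plk1, the Polo-like kinase that acts from centrosome maturation to cytokinesis (chromosome 7, 122159439 to 122169873, mm10), was at 541, 507 and 503 scaled counts in KO and 469, 327 and 446 in WT. Aurkb, the catalytic subunit of the passenger complex (chromosome 11, 69045647 to 69051664), was at 478, 449 and 440 in KO and 408, 291 and 394 in WT. Aurka, the centrosomal Aurora kinase, was at 377, 383 and 352 in KO and 339, 251 and 344 in WT. For these kinases WT 1 and WT 3 lay below the lowest KO library and WT 2 further below. The other passenger subunits were nearer to level: Birc5, which encodes survivin, was at 360, 378 and 353 in KO and 342, 288 and 348 in WT, and Incenp, the scaffold, at 1103, 1154 and 1135 in KO and 1096, 980 and 1067 in WT. The log2 difference was 0.34 ± 0.14 for Plk1 (SE, limma unadjusted p = 0.0516, adjusted p = 0.208) and 0.34 ± 0.14 for Aurkb (limma unadjusted p = 0.0457, adjusted p = 0.198). It was 0.26 for Aurka, 0.16 for Birc5 and 0.11 for Incenp.

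The spindle checkpoint genes differed in how far KO 3 and WT 2 lay below the rest. Bub1b, which encodes BubR1 of the mitotic checkpoint complex, was at 755, 835 and 728 scaled counts in KO and 716, 529 and 698 in WT, without overlap. Mad2l1, which encodes MAD2, was at 579, 578 and 493 in KO and 527, 407 and 552 in WT. Bub3, the WD-repeat protein that recruits BUB1 and BubR1, was at 554, 570 and 548 in KO and 567, 607 and 602 in WT, with WT 2 the highest library. Bub3 was thus the checkpoint gene with the smallest spread and a KO mean below the WT mean. The checkpoint kinases Bub1 and Ttk, outside the rule for naming genes and chosen after their values were seen, were low in both KO 3 and WT 2. Bub1 was at 644, 660 and 406 in KO and 583, 240 and 601 in WT, and Ttk, which encodes MPS1, at 322, 317 and 198 in KO and 259, 118 and 272 in WT. The median log2 difference of the 5 genes was 0.26, with limma adjusted p-values of 0.259 to 0.635.

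Among the partners and substrates of the anaphase-promoting complex, Espl1 had the largest difference relative to its error. Espl1 encodes separase, the protease that opens cohesin at anaphase (chromosome 15, 102296266 to 102324357), and was at 578, 593 and 545 scaled counts in KO and 499, 329 and 438 in WT. All KO libraries lay above all WT libraries, by 46 scaled counts between KO 3 and WT 1. The log2 difference was 0.46 ± 0.15 (SE, limma unadjusted p = 0.0223, adjusted p = 0.162). Without WT 1 it was 0.59 and the limma adjusted p was 0.029, the only pass of a mitotic gene in any fit, in a fit where 2323 of all tested genes (17.7%) passed and the remaining WT libraries were the pair with low Xist. Cdc20, the activator of the complex, was at 462, 434 and 409 in KO and 412, 300 and 369 in WT, with KO 3 just below WT 1. Ube2c, its ubiquitin-conjugating enzyme, was at 283, 300 and 267 in KO and 271, 228 and 267 in WT. Pttg1, which encodes securin, the inhibitor of separase (chosen after its values were seen), was at 169, 161 and 153 in KO and 178, 164 and 174 in WT. Separase and securin thus had KO means on opposite sides of the WT mean, 572 ± 24.6 against 422 ± 86.1 for Espl1 and 161 ± 8.0 against 172 ± 7.21 for Pttg1 (SD, n = 3 each), and the difference between the genes was not tested.

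**Figure D2:**
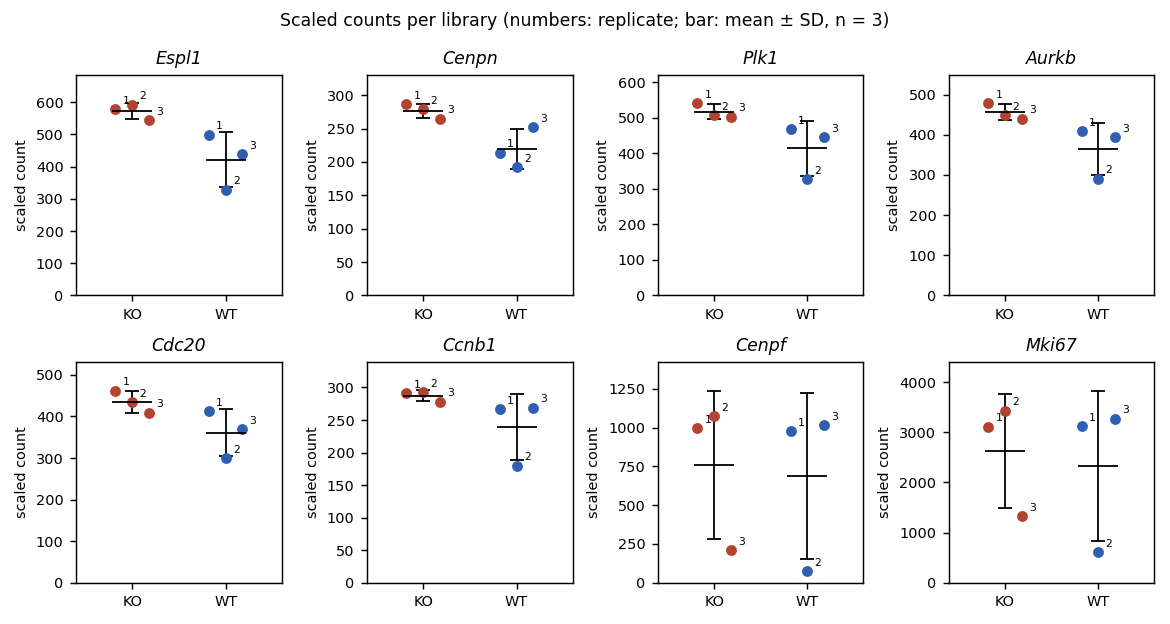
Scaled counts of 8 mitotic genes in each library, KO left of WT, with the replicate number beside each point and the mean ± SD of 3 libraries as a bar; each axis starts at 0. In Espl1, Cenpn, Plk1, Aurkb and Ccnb1 every KO point lies above every WT point, whereas in Cenpf and Mki67 the points KO 3 and WT 2 lie far below the other 4.

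The 9 centromere and kinetochore genes held genes that varied little between libraries and the most variable of the 50. Cenpn encodes a protein that binds the CENP-A nucleosome (chromosome 8, 116921730 to 116941507) and was at 286, 279 and 265 scaled counts in KO and 214, 192 and 252 in WT. Its log2 difference of 0.34 ± 0.11 had the smallest p of the 50 (SE, limma unadjusted p = 0.0202, adjusted p = 0.159). Cenpa, which encodes the centromeric histone H3 variant itself (chromosome 5, 30666777 to 30674830), was at 570, 593 and 506 in KO and 497, 483 and 477 in WT. The Cenpa WT libraries lay within 20 scaled counts of each other, so its difference of 0.19 ± 0.070 (SE, limma unadjusted p = 0.0323, adjusted p = 0.174) did not rest on WT 2. In the NDC80 complex, which grips the microtubule, Spc24 was at 168, 162 and 168 in KO and 154, 114 and 160 in WT, without overlap. Its partners in the complex, all 3 chosen after their values were seen, overlapped between the groups. Ndc80 was at 485, 488 and 365 in KO and 433, 278 and 454 in WT. Nuf2 was at 380, 402 and 354 in KO and 374, 225 and 352 in WT, and Spc25 at 341, 342 and 279 in KO and 314, 212 and 343 in WT.

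The large outer kinetochore genes showed another picture. Cenpe, a kinesin that carries chromosomes to the spindle equator (chromosome 3, 135212537 to 135273611), was at 1152, 1248 and 293 scaled counts in KO and 1129, 117 and 1169 in WT. Cenpf, a long coiled-coil protein of the outer kinetochore (chromosome 1, 189640606 to 189688086), was at 996, 1075 and 209 in KO and 979, 74 and 1018 in WT. Knl1, the scaffold that recruits BUB1 (chromosome 2, 119047119 to 119105501), was at 576, 631 and 159 in KO and 598, 66 and 554 in WT. In all 3 genes KO 1, KO 2, WT 1 and WT 3 lay close together, and KO 3 and WT 2 lay far below. Relative to the mean of the other libraries of its own group, KO 3 held 0.202 of the Cenpf level and WT 2 held 0.0741, and for Cenpe the ratios were 0.244 and 0.102. The log2 differences between the groups, 0.48 ± 1.04 for Cenpe, 0.53 ± 1.18 for Cenpf and 0.46 ± 0.98 for Knl1 (SE), were among the largest of the 50 and smaller than their errors, with limma adjusted p-values of 0.821, 0.828 and 0.817. Cenpf and Knl1 fall outside the rule for naming genes and were chosen after their values were seen.

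All 9 kinesins had the higher KO mean, the median of their log2 differences was 0.32, and none kept the groups apart. Kif2c, which encodes the microtubule depolymerase MCAK, was at 499, 530 and 448 scaled counts in KO and 429, 308 and 470 in WT. Kif20a, a motor of the central spindle, was at 773, 820 and 687 in KO and 701, 517 and 734 in WT. Kif22, a chromosome-bound motor, was at 433, 464 and 403 in KO and 403, 329 and 426 in WT. In each of these WT 2 was lowest and KO 3 did not exceed WT 3. Kif11, which encodes Eg5, the motor that pushes the spindle poles apart, was at 924, 967 and 667 in KO and 870, 408 and 860 in WT. The remaining motors were Kif4, Kif15, Kif18a, Kif20b and Kif23, which fall outside the rule and were chosen after their values were seen. Kif20b, a relative of Kif20a, was at 622, 722 and 198 in KO and 636, 84 and 690 in WT, and Kif18a, which limits chromosome oscillation, at 169, 181 and 91 in KO and 181, 45 and 155 in WT. Kif15, which assists Eg5, was at 676, 665 and 443 in KO and 569, 252 and 582 in WT. Kif23, of the centralspindlin complex, was at 760, 788 and 681 in KO and 699, 491 and 724 in WT. Kif4, a chromokinesin and the X-linked member, was at 650, 668 and 546 in KO and 599, 311 and 567 in WT. The kinesins thus ranged from slightly to far lower in KO 3 and WT 2 than in the other libraries, with limma adjusted p-values between the groups of 0.298 to 0.826.

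Condensin, topoisomerase II and Ki-67 shape the mitotic chromosome. Mki67, which encodes the proliferation marker Ki-67, a coat of mitotic chromosomes (chromosome 7, 135689784 to 135716361), was at 3109, 3432 and 1329 scaled counts in KO and 3125, 605 and 3270 in WT. Top2a, the topoisomerase that untangles sister chromatids, was at 2134, 2210 and 1728 in KO and 2037, 1265 and 2100 in WT. Both genes were low in KO 3 and WT 2 and close to level in the other 4 libraries. Within condensin I the regulatory subunits Ncaph and Ncapd2 were steadier: Ncaph, which closes the ring, was at 605, 634 and 585 in KO and 565, 456 and 558 in WT, without overlap, and Ncapd2 at 1233, 1285 and 1152 in KO and 1177, 918 and 1118 in WT. The third regulatory subunit Ncapg was at 569, 588 and 309 in KO and 532, 205 and 515 in WT. The ATPase core, shared by both condensins, was low in the same libraries, with Smc2 at 1082, 1113 and 525 in KO and 1029, 353 and 1019 in WT, and Smc4 at 1025, 1107 and 574 in KO and 1099, 395 and 1072 in WT. Transcripts for subunits of the same ring therefore differed in how far they were lower in KO 3 and WT 2. Ncapg, Smc2 and Smc4 were chosen after their values were seen. The median log2 difference of the 7 genes was 0.21, with limma adjusted p-values of 0.226 to 0.87.

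In spindle assembly and cytokinesis, Tpx2, which activates Aurora A on the spindle, was at 974, 1025 and 931 scaled counts in KO and 902, 687 and 908 in WT, without overlap. Anln, which encodes the contractile ring protein anillin, was at 938, 1012 and 791 in KO and 888, 521 and 837 in WT. Racgap1, the partner of Kif23 in centralspindlin, was at 787, 788 and 711 in KO and 729, 576 and 756 in WT. In Anln and Racgap1 KO 3 lay below both WT 1 and WT 3. Ect2, the RhoA exchange factor, was at 576, 582 and 428 in KO and 541, 291 and 550 in WT, and Prc1, which bundles the central spindle, at 912, 951 and 843 in KO and 902, 640 and 908 in WT, both chosen after their values were seen. The median log2 difference was 0.24 and the limma adjusted p-values were 0.262 to 0.628.

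How far KO 3 and WT 2 lay below the other libraries varied with the base composition of the transcript. Taken against the mean of the other libraries of the same group on the log2 scale, KO 3 ranged from -2.30 (Cenpf) to 0.026 (Spc24) and WT 2 from -3.74 (Cenpf) to 0.055 (Bub3). Across the 50 genes these differences had a Spearman rho of 0.82 with each other. With the adenine share of the transcript, read from GENCODE M21, rho was -0.81 for KO 3 and -0.81 for WT 2, and with its length -0.59 and -0.63. With its share of G and C, rho was 0.74 for KO 3 and 0.71 for WT 2. Over 13254 tested genes with a transcript, rho with the adenine share was -0.39 for KO 3 and -0.43 for WT 2, and between the differences 0.59. With the share of G and C it was 0.39 and 0.41. The adenine share is used below, but which of these properties matters was not tested. Genes are not independent replicates, and the points of each library share its depth and its preparation, so these values are descriptions. With all genes grouped into 10 equal bins by adenine share, the median difference ran from 0.077 in the lowest bin to -0.34 in the highest for KO 3, and from 0.15 to -0.52 for WT 2. Of the 50 mitotic genes, 18 (36.0%) were in that highest bin.

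**Figure D3:**
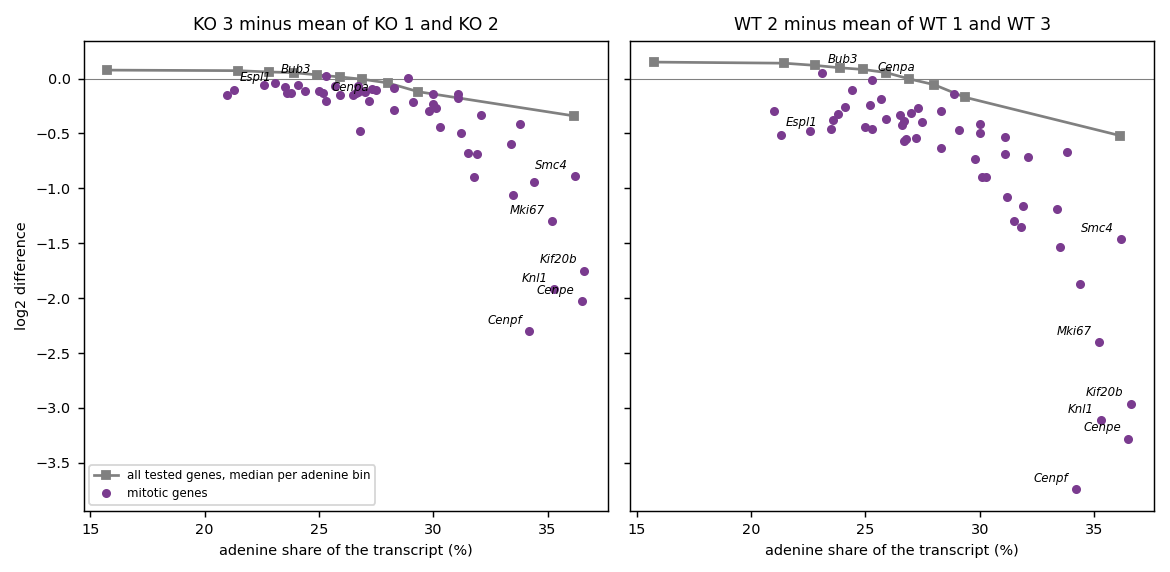
The log2 difference of KO 3 (left) and WT 2 (right) from the mean of the other libraries of its group, against the adenine share of the transcript in percent. Purple points are the 50 mitotic genes and grey squares the median of all tested genes in each of 10 bins of adenine share, drawn at the middle of its range. Genes above 33% adenine, among them Cenpf, Cenpe, Knl1, Kif20b and Mki67, reach from -0.41 to -2.30 in KO 3 and from -0.67 to -3.74 in WT 2.

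The coding sequences of some of these genes show a difference in composition. The 90-base window of the coding sequence with the most adenines is printed for the 4 genes that lay lowest in KO 3 and WT 2 and for 4 kinase, activator and protease genes that varied less, from the GENCODE M21 transcript with the longest coding sequence, 5′ to 3′, with runs of at least 3 adenines in capitals. The 4 comparison genes are poor in adenine (21.3% to 23.6% of the transcript) and were not those nearest to level. In WT 2 they lay at -0.38 (Cdc20) to -0.51 (Espl1), near the median of -0.5 over the 50 genes. Bub3, with 23.1% adenine, lay at 0.055 and Incenp, with 28.9%, at -0.14. The windows start at coding bases 1792 (Cenpf), 1561 (Cenpe), 1390 (Knl1) and 1705 (Kif20b), and at 376 (Cdc20), 580 (Aurkb), 766 (Plk1) and 5221 (Espl1).
Cenpf: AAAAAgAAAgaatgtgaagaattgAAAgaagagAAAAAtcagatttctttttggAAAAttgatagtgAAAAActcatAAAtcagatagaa
Cenpe: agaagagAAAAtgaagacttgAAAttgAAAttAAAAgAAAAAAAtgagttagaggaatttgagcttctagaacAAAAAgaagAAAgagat
Knl1: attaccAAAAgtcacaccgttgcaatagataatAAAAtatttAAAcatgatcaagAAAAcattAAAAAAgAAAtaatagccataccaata
Kif20b: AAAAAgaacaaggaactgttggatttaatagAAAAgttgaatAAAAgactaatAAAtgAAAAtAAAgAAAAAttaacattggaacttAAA
Cdc20: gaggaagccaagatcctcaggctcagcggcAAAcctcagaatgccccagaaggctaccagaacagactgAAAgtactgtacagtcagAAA
Aurkb: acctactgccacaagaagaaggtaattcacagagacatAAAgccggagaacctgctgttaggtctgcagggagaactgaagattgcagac
Plk1: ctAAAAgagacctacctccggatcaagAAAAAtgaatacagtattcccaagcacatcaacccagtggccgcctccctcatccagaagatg
Espl1: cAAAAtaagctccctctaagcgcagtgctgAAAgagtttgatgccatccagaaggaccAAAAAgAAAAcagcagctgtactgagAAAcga
Adenine made up 52.2% of the window in Cenpf, 54.4% in Cenpe, 53.3% in Knl1 and 56.7% in Kif20b, against 36.7% in Cdc20, 35.6% in Aurkb, 35.6% in Plk1 and 40.0% in Espl1. Over the whole coding sequence the share was 35.9% in Cenpf and 37.2% in Cenpe, against 24.5% in Cdc20 and 21.3% in Espl1. A longer coding sequence offers more windows to pick from, so the share in the window also depends on length. Coding sequences had 8991, 7413, 6357 and 5322 bases in Cenpf, Cenpe, Knl1 and Kif20b. They had 1497, 1035, 1809 and 6354 bases in Cdc20, Aurkb, Plk1 and Espl1. The parts of length and composition were not tested.

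Adenine-rich transcripts were frequent among the mitotic genes: 19 of 50 (38.0%) had at least 30% adenine, against 1406 of 13204 other tested genes (10.6%). This split, the one below at 33% and 5000 bases, and the fits that follow were chosen after the values were seen. In the 19 adenine-rich genes the median log2 difference was -0.69 for KO 3 and -1.30 for WT 2, against -0.31 and -0.48 in other genes of that composition. In the 31 mitotic genes with less adenine it was -0.12 for KO 3 and -0.39 for WT 2, against 0.023 and 0.056 in other genes. The medians of the mitotic genes thus lay below those of other genes in both composition classes, a difference that was not tested. The classes were not matched in composition: the median adenine share was 33.4% in mitotic and 31.3% in other adenine-rich genes, and 26.5% against 24.8% in the rest. Median transcript length was 4819 against 3034 bases in the adenine-rich class and 2489 against 2919 in the rest. For transcripts with at least 33% adenine and at least 5000 bases, the medians were -1.84 for KO 3 and -3.03 for WT 2 in 6 mitotic genes, and -1.41 and -1.60 in 44 other genes. Their median adenine share was 35.3% in the mitotic and 33.7% in the other genes. All 16 genes whose groups did not overlap were among the 31 with less adenine, and 0 among the 19. The share was also lower in other adenine-rich genes, 6.54% of the 1406, against 17.2% of the 11798 with less adenine. What makes adenine-rich transcripts low in KO 3 and WT 2 was not tested. The summed macrophage markers were 17222 in KO 3 and 18813 in WT 2, within or above the range of the other libraries of their group.

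The size of the difference depended on which of these libraries were kept. Without WT 2 alone, the KO mean was higher in 32 of the 50 genes, with a median log2 difference of 0.063 and 16 genes without overlap. Without KO 3 alone, it was higher in 48, with a median of 0.32 and 40 without overlap. Both were then set aside, which removes the lowest library of each group. They were picked for being low in these same genes, so setting them aside narrows the spread of these genes within the groups. The shares of all genes in that fit are therefore not a like background, and the counts are descriptions. Both remaining KO libraries lay above both remaining WT libraries in 40 of 50 genes, against 29.1% of all genes tested in that fit, and below in 1 (Pttg1), against 30.4%. The KO mean was higher in 47, against 49.1% of all genes, and the median log2 difference was 0.13, against -0.0037 over all genes. At an unadjusted p under 0.05, 24 of the 50 were higher, against 8.6% of all genes, and 0 passed the limma adjusted threshold (smallest adjusted p = 0.237, Ccna2), as did 0 of all genes (0.0%). By role, 6 of 6 entry genes, 5 of 5 Polo, Aurora and passenger genes and 5 of 5 spindle and cytokinesis genes lay above, as did 4 of 5 checkpoint genes, 7 of 9 kinesins, 5 of 7 chromosome structure genes and 5 of 9 centromere and kinetochore genes. The largest differences between KO 1 with KO 2 and WT 1 with WT 3 were 0.36 in Cdc25c, 0.32 in Espl1, 0.28 in Cenpn, 0.27 in Ttk and 0.26 in Cenpa, while Cenpf had 0.052, Mki67 0.031 and Kif20b 0.017. When a smooth function of adenine share and length was instead removed from every library, all 6 being kept, 49 of 50 were higher in KO, against 50.6% of all genes, and the median was 0.26, against 0.0029. In that fit 10 were higher at an unadjusted p under 0.05, against 15.7% of all genes, and 0 passed (smallest limma adjusted p = 0.117, Kif23).

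**Figure D4:**
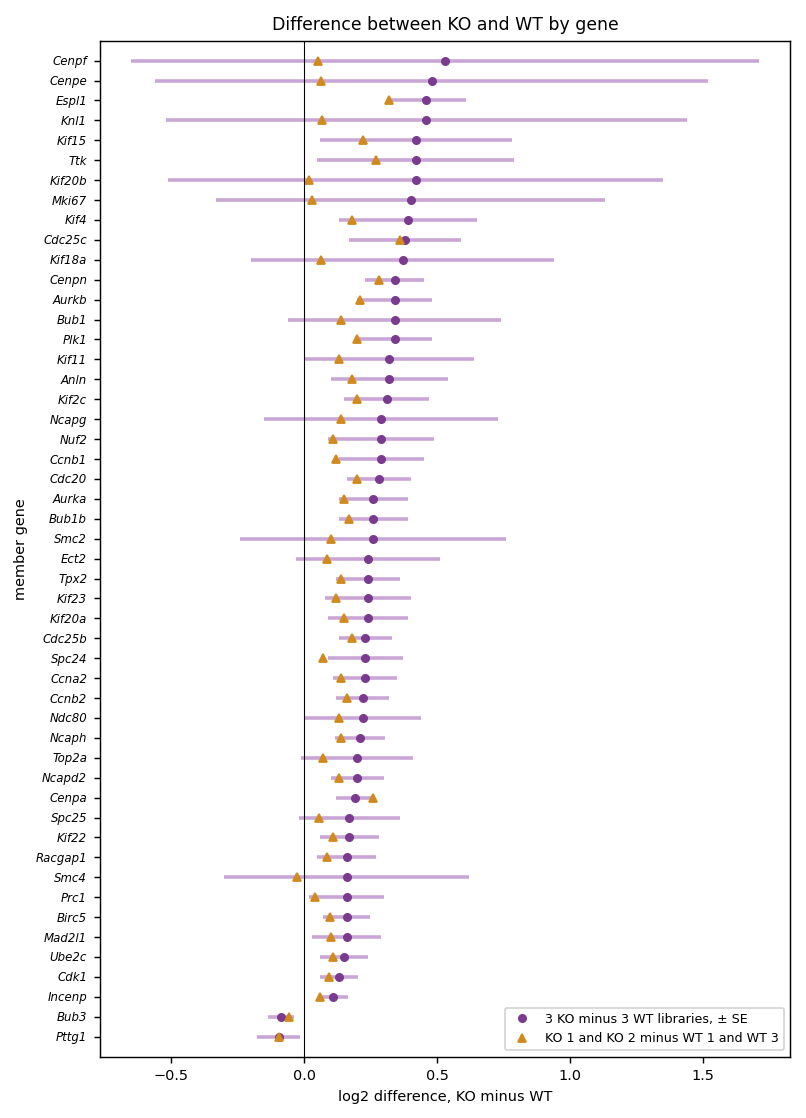
Log2 difference between KO and WT of each mitotic gene, sorted. Circles give 3 KO minus 3 WT libraries with a bar of ± 1 SE, and triangles KO 1 and KO 2 minus WT 1 and WT 3. Cenpf, Cenpe, Knl1, Kif20b and Mki67 have circles of 0.40 to 0.53 with wide bars and triangles of 0.017 to 0.067, whereas Espl1, Cenpn and Cenpa have triangles of 0.26 to 0.32.

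Most promoters of these genes carried the elements named for their cell cycle control. RefSeq windows of 250 bases before to 50 after the start (GRCm38.p6) were matched for 42 of the 50 genes. On either strand, TTTGAA (the core of CHR) was found in 32 (76.2%), against 20.1% of 26983 other genes, CCAAT in 30 (71.4%), against 41.0%, and TATAAA in 1 (2.38%), against 15.7%. Both TTTGAA and CCAAT were found in 26, and 29 had TTTGAA within 50 bases of the start. These motifs do not overlap in sequence. The 150 bases before the start are printed, 5′ to 3′ on the gene's strand, for a set of 5 genes in which WT 2 lay from far (-2.40 on the log2 scale in Mki67) to slightly (-0.19 in Cdk1) below WT 1 and WT 3, with Cdc20, Espl1 and Cenpn between, with TTTGAA or its reverse complement TTCAAA and CCAAT or its reverse complement ATTGG in capitals.
Mki67, chr7:135716380-135716529, minus strand: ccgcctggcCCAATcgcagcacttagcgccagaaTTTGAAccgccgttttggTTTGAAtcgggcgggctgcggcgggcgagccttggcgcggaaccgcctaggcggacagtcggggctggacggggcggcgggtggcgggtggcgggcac
Cdk1, chr10:69352913-69353062, minus strand: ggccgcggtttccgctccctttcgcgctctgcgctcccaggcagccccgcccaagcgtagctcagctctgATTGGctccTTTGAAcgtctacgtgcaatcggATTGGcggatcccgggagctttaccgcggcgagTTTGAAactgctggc
Cdc20, chr4:118437344-118437493, minus strand: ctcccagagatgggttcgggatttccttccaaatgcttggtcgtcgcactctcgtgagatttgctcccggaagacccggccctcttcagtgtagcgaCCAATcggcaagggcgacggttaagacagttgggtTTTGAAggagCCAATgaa
Espl1, chr15:102296143-102296292, plus strand: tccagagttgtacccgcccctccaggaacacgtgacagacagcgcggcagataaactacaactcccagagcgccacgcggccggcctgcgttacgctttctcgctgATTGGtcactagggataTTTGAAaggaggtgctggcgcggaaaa
Cenpn, chr8:116921590-116921739, plus strand: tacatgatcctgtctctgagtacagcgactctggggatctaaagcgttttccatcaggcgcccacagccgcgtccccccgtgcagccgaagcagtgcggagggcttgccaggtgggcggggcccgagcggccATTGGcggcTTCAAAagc
The median log2 difference between KO and WT was 0.26 in the 32 genes with TTTGAA and 0.26 in the 10 without it. A match describes these letters in this window and not a bound site.

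Other genes of the cell cycle were read from lists by function. Among 65 further mitotic genes, 64 had the higher KO mean (49.1% of all tested genes), the median log2 difference was 0.28, every KO library exceeded every WT library in 22 (33.8%, against 16.1% of all tested genes), and 0 passed the limma adjusted threshold. Psrc1, a spindle protein, was at 385, 334 and 312 scaled counts in KO and 275, 241 and 214 in WT, and Gtse1, which acts in G2 and mitosis, at 551, 567 and 504 in KO and 462, 411 and 474 in WT. Cenpt, of the inner kinetochore, was at 278, 283 and 266 in KO and 238, 245 and 236 in WT, and Kif24, a centriolar kinesin, at 238, 253 and 223 in KO and 202, 160 and 203 in WT. In all 4 genes every KO library was above every WT library, and Psrc1 and Cenpt had WT libraries in which WT 2 was not the lowest.

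Genes of other stages lay nearer to level. Of 42 S phase and replication genes 37 had the higher KO mean, the median was 0.074, and WT 2 was lowest in 37. Orc1, of the origin recognition complex, was at 134, 130 and 130 in KO and 101, 71 and 120 in WT, whereas Pcna, the sliding clamp, was at 449, 462 and 502 in KO and 495, 587 and 562 in WT. Pole, the leading-strand polymerase, was at 880, 930 and 948 in KO and 849, 762 and 864 in WT, and Prim1, a primase subunit, at 312, 329 and 296 in KO and 280, 232 and 288 in WT. The 16 tested subunits of the anaphase-promoting complex, which are expressed throughout the cycle, had a median of -0.019, with 7 higher and 9 lower. Cdc16 was at 525, 545 and 490 in KO and 467, 456 and 450 in WT, and Cdc23 at 597, 551 and 562 in KO and 538, 532 and 525 in WT, both without overlap. Anapc15 was at 391, 396 and 439 in KO and 442, 490 and 445 in WT, and Cdc26 at 171, 157 and 142 in KO and 167, 194 and 183 in WT. Neither list had a gene past the limma adjusted threshold.

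Cohesin, the ring that separase opens, had 12 genes with a median of 0.0084. Against the other libraries of their group the list's median was -0.55 in KO 3 and -0.66 in WT 2, with Rad21 near level and Mau2 higher in both. Esco2, a cohesin acetyltransferase of S phase, was at 325, 309 and 163 in KO and 255, 100 and 275 in WT, and Pds5b, a cohesin regulator, at 804, 776 and 530 in KO and 751, 430 and 711 in WT. Smc1a, of the ring itself, was at 1260, 1269 and 1185 in KO and 1226, 1050 and 1230 in WT, and Mau2, of the cohesin loader, at 843, 895 and 907 in KO and 872, 1015 and 901 in WT. The 18 tested transport kinesins, which carry cargo outside mitosis, had a median of -0.056, with 8 higher and 10 lower. Among them Kif7 and Kif3a act in the cilium, with Kif7 at 116, 95 and 102 in KO and 68, 36 and 43 in WT, and Kif3a at 732, 757 and 630 in KO and 595, 539 and 533 in WT. Kif26b was at 805, 544 and 370 in KO and 314, 47 and 49 in WT, and Kif21a at 48, 31 and 28 in KO and 21, 7 and 7 in WT, both with WT 1 above WT 2 and WT 3 as in the stroma markers.

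The regulators of the mitotic programme included members on both sides. Of 23 genes of MuvB, DREAM, B-MYB, FOXM1 and E2F, 14 were higher in the KO mean and the median was 0.050. Foxm1, the forkhead factor of the G2 programme, was at 743, 778 and 740 scaled counts in KO and 696, 482 and 642 in WT, a log2 difference of 0.33 without overlap (limma adjusted p = 0.206). Mybl2, which encodes B-MYB, was at 240, 214 and 256 in KO and 235, 179 and 223 in WT. Of the E2F factors, E2f7 was at 428, 473 and 427 in KO and 385, 291 and 347 in WT, and E2f2 at 478, 478 and 465 in KO and 445, 280 and 363 in WT. The subunits of NF-Y, the factor that binds CCAAT, stood on opposite sides: Nfyb was at 269, 253 and 256 in KO and 225, 222 and 239 in WT, and Nfya at 1089, 1137 and 1214 in KO and 1206, 1427 and 1301 in WT. In Foxm1, E2f2 and E2f7, WT 2 was the lowest library, as it was in Cdk1, Plk1, Aurka and Aurkb.

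Cyclin-dependent kinase inhibitors and G1 genes had a median of 0.055 over 14 tested genes. Cdkn1c, which encodes the inhibitor p57, was at 38, 42 and 54 scaled counts in KO and 63, 135 and 145 in WT, and Cdk6, a G1 kinase, at 1957, 1890 and 2274 in KO and 2350, 2621 and 2483 in WT. Of the INK4 inhibitors of that kinase, Cdkn2a was at 179, 177 and 149 in KO and 122, 125 and 94 in WT, and Cdkn2b at 245, 216 and 178 in KO and 143, 128 and 85 in WT. Cdkn1c and Cdk6 were below and Cdkn2a and Cdkn2b above WT in every library (limma adjusted p = 0.158 for each). Cdkn1a, which encodes p21, was at 1135, 1144 and 1184 in KO and 1197, 1302 and 1182 in WT, and Cdkn1b, which encodes p27, at 551, 577 and 473 in KO and 519, 472 and 471 in WT. Cyclin D1 (Ccnd1) was at 1887, 1880 and 2099 in KO and 2190, 2261 and 2076 in WT. Kinases and inhibitors of G1 thus had KO values on both sides of WT while 48 of the 50 mitotic genes had the higher KO mean.

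**Figure D5:**
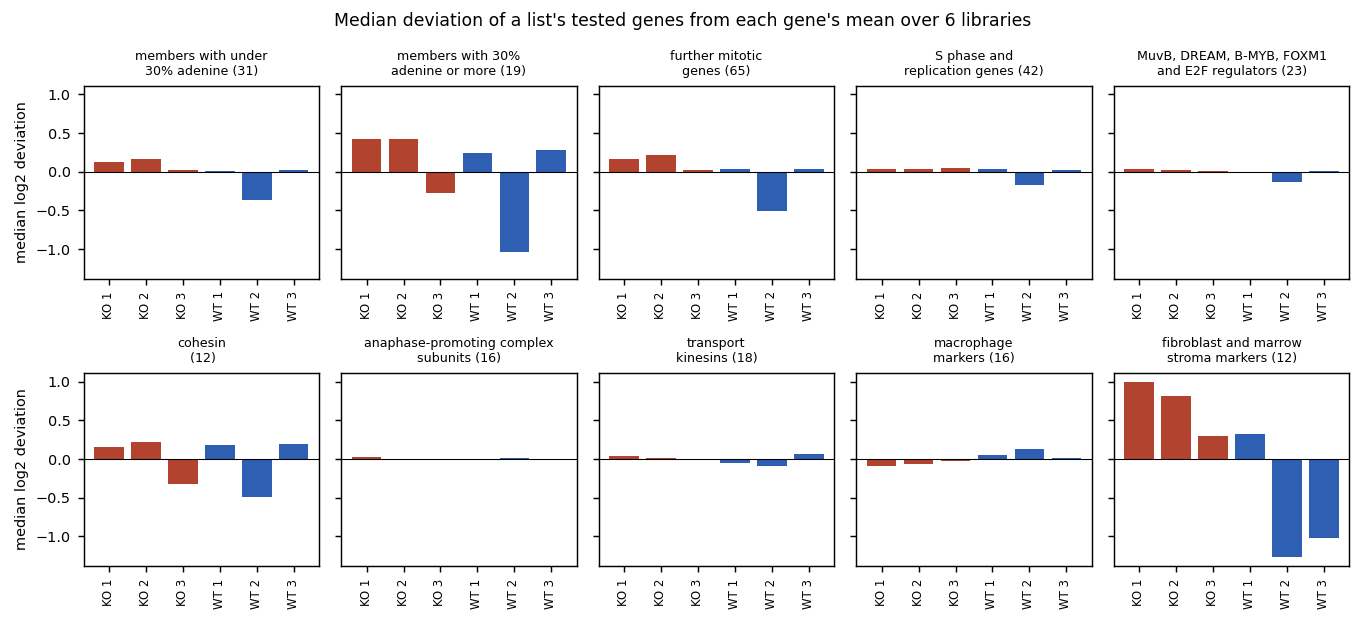
Median over a list's tested genes (number in brackets) of log2(scaled count + 1) minus the gene's mean over the 6 libraries, as a bar for each library with KO left of WT. The WT 2 bar is the lowest in every panel except the anaphase-promoting complex subunits, which stay near 0, and the macrophage markers, which reach 0.13 in WT 2. In the other panels the WT 2 bar runs from -0.091 in the transport kinesins to -1.27 in the stroma markers. WT 3 is low together with WT 2 in the stroma markers.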

How the data were processed

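Poly(A) RNA-seq values of 3 KO and 3 WT libraries were analysed. The deposited values are a score: read counts per gene that the authors multiplied by a library-wide factor and rounded to whole numbers, called scaled counts here. Per the submitters' processing notes the tools were featureCounts 2.0.3, DESeq2 1.36.0, STAR 2.7.10a, Trimmomatic 0.39 and Picard 2.27.4, with mm10; their roles, and whether counting used strand, are not given in the sources used here. The library kit was stranded and took 3 µg of RNA, and reads were single, of 72 bases, per the labels. The factor could be read from the spacing of low values for KO 1, KO 2 and WT 2 (0.932, 0.954 and 1.0955, about 6240000, 6090000 and 5290000 reads); the depth of the other libraries is unknown. Because of the rounding, neither count models nor counting intervals were used.

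Genes reaching 10 in 3 or more libraries entered limma-trend (limma 3.58.1, R 4.3.3) on log2(value + 1), group as the only term, two-sided, with Benjamini-Hochberg adjustment over all 13260 genes at 0.05. This replaced the count test planned for raw counts. Differences are KO minus WT and understate changes of low genes. Lengths and base shares came from the GENCODE M21 transcript with the longest coding sequence, and levels per kilobase from the union of exons; 17297 of 17313 identifiers were found there.

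The members, lists, tests and alternatives were chosen with earlier results of these data known. Named by rule were, per role, the 3 members with the smallest p, the one with the highest mean and all without overlap (31 of 50), up to 4 genes with the smallest p per list, and Hdac2, Lyz2, Xist, Cdkn1a, Cdkn1b, Foxm1, Mybl2 and Ccnd1. The fit of KO against WT was tried on simulated data with 200 of the 13260 genes changed. It recovered 65% of 2-fold and 81% of 4-fold changes, with 9 false calls. On the real libraries it passed 0 genes. Both simulated sizes are far above the median log2 difference of 0.25 over the 50 mitotic genes, and recovery at that size was not tested. Alternatives were other scalings, pseudocounts, filters, no trend, a replicate block, each library left out, WT 1 as the only WT library and, chosen after seeing the data, KO 3 with WT 2 set aside and adenine share with length removed.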

Additional observations from a re-analysis of the deposited data

How the results depend on the processing

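The count of mitotic genes higher in KO at an unadjusted p under 0.05 (4 as reported) was 7 under upper-quartile rescaling, 8 under cyclic loess, 2 without the intensity trend, 1 against WT 1 alone, 24 with KO 3 and WT 2 set aside and 10 with adenine share and length removed. Genes without overlap (16) were 10 under TMM rescaling and 40 with KO 3 and WT 2 set aside. Those libraries were set aside for being low in these same genes, which narrows the spread of these genes within the groups. Leaving out each library in turn gave 0 to 10 genes at the unadjusted p, 16 to 40 without overlap (40 without KO 3), 32 to 48 higher in the KO mean (32 without WT 2), a median log2 difference of 0.063 to 0.35 (0.063 without WT 2), 0 to 1 genes past the adjusted threshold, 0 to 2323 of all genes (2323 without WT 1) and a Hdac2 difference of -0.45 to -0.38, past the limma threshold without WT 1 (adjusted p = 0.0142). Against WT 1 alone, whose spread is assumed equal to that of KO, 34 of the 50 had the higher KO mean and the median was 0.060.

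The direction of 4 named genes reversed against WT 1 alone, to -0.59 (Cenpe), -0.048 (Kif11), -0.018 (Top2a) and -0.37 (Mki67). It also reversed without WT 2, and leaving out each library gave -0.61 to 1.16, -0.04 to 0.51, -0.039 to 0.33 and -0.40 to 0.83 for the same genes. The other 27 of 31 kept their direction in every alternative. Most of the 31 were named for a small p-value or for groups without overlap in these same libraries, so this stability was partly built in. It does not describe the whole mitotic set. There the KO mean was higher in 48 genes with all libraries, in 34 against WT 1 alone and in 32 without WT 2. With the replicate number as a block, 5 genes were higher at the unadjusted p, 0 passed and the median was 0.25. Of the same-numbered pairs, number 1 deviated together and numbers 2 and 3 did not (r over genes 0.534, -0.364 and 0.0238), KO 3 correlated best with WT 2 (0.618), and the numbers were not taken to pair the samples. The cause of these shifts was not tested. The unknown depth of KO 3, WT 1 and WT 3 limits what can be said of low values.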

Other observations

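Long, adenine-rich transcripts outside the mitotic programme were also low in KO 3 and WT 2. The values below belong to genes picked for that pattern and are given with no test. Cep290, which encodes a protein of the ciliary transition zone, was at 238, 258 and 57 scaled counts in KO and 277, 15 and 326 in WT, with 39.0% adenine. Rev3l, the catalytic subunit of a translesion polymerase, was at 540, 602 and 133 in KO and 493, 64 and 407 in WT, and Rif1, a regulator of replication timing, at 663, 700 and 193 in KO and 703, 140 and 720 in WT. Vps13a, a lipid transfer protein, was at 695, 761 and 180 in KO and 802, 166 and 789 in WT, and Phip at 1075, 1165 and 315 in KO and 1192, 300 and 1329 in WT. As in Cenpf and Cenpe, the other 4 libraries lay close together in most of these genes. Over 44 genes outside the 50 with at least 33% adenine and 5000 bases, the summed level was 31551, 32614 and 14376 in KO and 33950, 12221 and 35808 in WT.

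Among the other cell type markers, Krt19, an epithelial keratin, was at 95, 73 and 75 scaled counts in KO and 22, 10 and 1 in WT, while Cdh1 did not exceed 6 in any library. Of 4 tested blood progenitor markers 3 were higher in the KO mean, with Hoxa9 at 101, 91 and 73 in KO and 57, 11 and 11 in WT. The remaining tested marker was lower in KO, with a log2 difference of -0.56. Kit, too low to be tested, was at 4, 3 and 6 in KO and 4, 18 and 9 in WT. All 3 tested B and T cell markers had the higher KO mean and the median log2 difference was 1.39. Cd79b was at 29, 34 and 39 in KO and 17, 9 and 12 in WT, and Trac at 31, 15 and 27 in KO and 20, 1 and 2 in WT. Ighm, the remaining tested marker, was near level, with a log2 difference of 0.045. Their summed level was 382, 397 and 278 in KO and 304, 328 and 269 in WT. Lck, too low to be tested, was at 7, 5 and 1 in KO and 5, 9 and 5 in WT. S100a8, the neutrophil marker that was tested, was at 15, 9 and 12 in KO and 20, 23 and 26 in WT, and no erythroid marker was tested. Their part in the levels of the mitotic genes was not tested.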
